A study of Mus musculus with 16 samples.

Results

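Thy1, the gene of the cell surface glycoprotein Thy-1, was 1 row of the 19999 genes counted in single nuclei of the medial PFC, and it was chosen by name because the transgenes of 3xTg-AD mice sit in a mouse Thy1.2 cassette. The row held 57127 of 216742276 unique molecular identifiers (UMIs), in 42188 of 114512 nuclei (36.8%). The 16 nuclear preparations came from 16 male mice aged 22 weeks, with 4 mice in each of 4 groups. WT mice without alcohol (WT controls) and alcohol-exposed WT mice were of the strain B6;129. 3xTg-AD mice without alcohol and 3xTg-AD mice exposed to alcohol carried mutant human APP and tau transgenes among their engineered alleles, on a B6;129 background per the study's methods. Exposure to alcohol was by intermittent vapor, after an injection of ethanol. Both exposed and unexposed mice were given pyrazole, which slows the breakdown of alcohol, and the unexposed mice breathed air. Per the study, tissue was taken days after the last vapor exposure and after water maze testing. Alcohol exposure below thus means a history of exposure, not exposure at sampling. The study's discussion calls the WT controls littermates. 3xTg-AD is a single line, so effects of the transgenes and of other differences that go with the line cannot be told apart.

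Thy-1 is a small protein of the immunoglobulin superfamily that is held in the membrane by a glycosylphosphatidylinositol (GPI) anchor. It is abundant on projection neurons and on thymocytes, and it binds integrins and syndecan-4 on neighboring cells, among them astrocytes. Because the gene is strongly used in neurons after birth, pieces of it that leave out the coding part serve as expression cassettes for transgenes, and lines made with such cassettes often express most strongly in subcortically projecting neurons of layer 5.

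The gene (ENSMUSG00000032011.5) lies on the plus strand at chr9:44043384-44048579 of GRCm38 (mm10), with 6 transcripts in GENCODE M21. Transcript Thy1-201 has 4 exons and 1735 bases, of which the 3′ untranslated region with the stop codon takes 1131 bases (65.2%), all in exon 4. The libraries tag the 3′ ends of transcripts, so the count depends mainly on this end. The human transgenes have no row in the table. A read with Thy1 sequence from a transgene transcript and a read from the endogenous gene cannot be told apart on this row, and how much of the untranslated region the transgenes carry is not given in the sources used here.

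Nuclei were sorted into classes by UMIs of cell type markers, without Thy1, and each name below stands for nuclei like that type. Of all nuclei, 71967 joined a main class, 38805 had too few marker UMIs, and 3740 had no clear lead. Glutamatergic nuclei were the largest class with 51292, of which 28692 had no subclass, and GABAergic nuclei numbered 5229. The subclass that the results turn on, layer 5 extratelencephalic (L5 ET) neurons, which project out of the telencephalon, held 3490 nuclei, 1622 from WT and 1868 from 3xTg-AD mice. Of its 10 leading genes, 6 were its own markers, among them the transcription factor genes Fezf2, Bcl11b and Pou3f1. For astrocytes 0 of the 10 leading genes were on the marker list, although all 9 astrocyte markers were raised at least 8.29-fold, and for Sncg neurons 1 of 10 was. The markers defined the classes, so their rise within a class follows from the sorting and is no independent check of its name.

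Levels of Thy1 are given as CPM, the Thy1 UMIs of a class in a mouse divided by all UMIs of that sum, after scaling by the trimmed mean of M-values (TMM). The level in the sum of all nuclei was 260 ± 48.2 CPM (SD, n = 16 mice), and it was 225 ± 40.4 CPM in glutamatergic and 236 ± 36.9 CPM in GABAergic nuclei. Across 15 classes, the mean fell between 378 and 189 CPM, so that no class lacked Thy1 UMIs and none stood far above the rest. The order began with Vip neurons (378 ± 137, n = 14 mice), microglia and perivascular macrophages (346 ± 111), oligodendrocytes (321 ± 75.9), astrocytes (267 ± 52.1) and oligodendrocyte precursors (257 ± 67.2).

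L5 ET neurons followed with 251 ± 74.5 CPM, the highest mean of the glutamatergic subclasses over all 16 mice. In the 8 WT mice alone their mean of 201 CPM lay below those of L5/6 near-projecting (NP) neurons (241) and L6 corticothalamic (CT) neurons (211), and in the 8 3xTg-AD mice their mean of 301 CPM lay above both (233 and 245). Endothelial cells had 248 ± 117, L5/6 NP neurons 237 ± 46.1, Sncg neurons 232 ± 36.4 and L6 CT neurons 228 ± 42.1. Pvalb neurons had 225 ± 83.3 (n = 14 mice), Sst neurons 210 ± 61.8 and Lamp5 neurons 209 ± 86.5 (n = 14 mice). The lowest 2 were the intratelencephalic (IT) neurons of layer 5 with 202 ± 32.7 and of layer 2/3 with 189 ± 30.7.

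Only 1 of the 14 pairs of neighbors in this order differed beyond the spread within mice, namely oligodendrocytes over astrocytes. There Thy1 was higher in 14 of 16 mice, by 0.26 on the log2 scale (exact permutation of signs, two-sided, p = 0.00153, Benjamini-Hochberg adjusted p = 0.0214). L5 IT over L2/3 IT neurons had a log2 difference of 0.10, with an adjusted p of 0.254 in the same exact permutation test. Another 4 small classes had fewer than 10 nuclei in too many mice for a place in the order: 331 L6 IT nuclei held 233 Thy1 UMIs, 111 L6b nuclei 66, 152 mural nuclei 58 and 168 nuclei of vascular leptomeningeal cells 62. The 42545 unassigned nuclei had a mean of 348 ± 72.1 CPM.

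**Figure D1:**
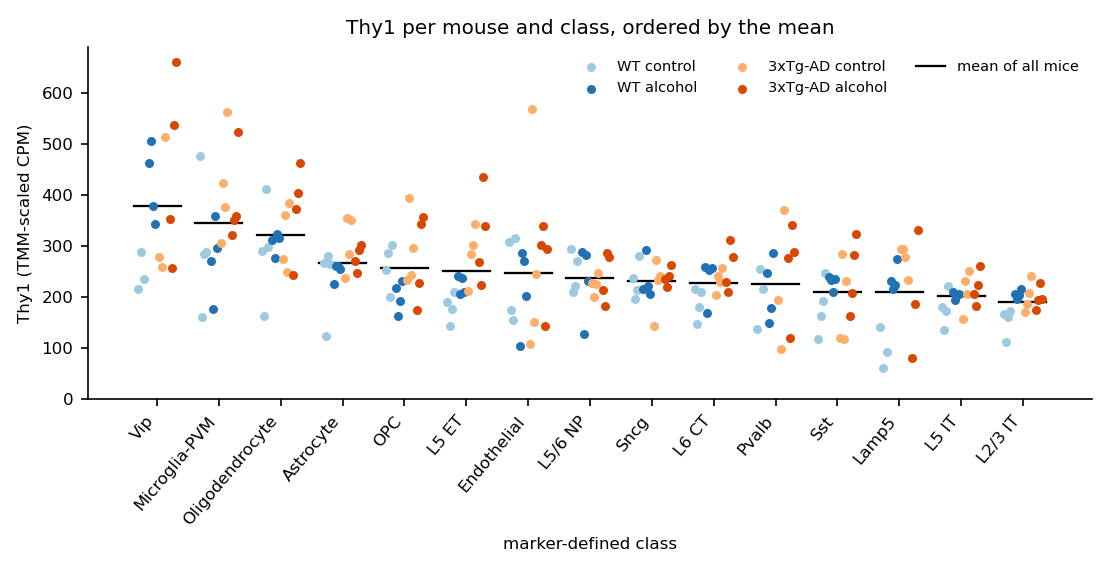
Thy1 level in CPM (TMM-scaled) in each of 15 marker-defined classes, ordered by mean. Each point is a mouse that had at least 10 nuclei of the class, and the line is the mean over mice. The means run from 378 CPM in Vip neurons to 189 CPM in L2/3 IT neurons, and the glial classes lie among or above the neuronal ones.

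The order on this scale depends on how much RNA a nucleus holds. Per nucleus, glutamatergic nuclei had 0.594 ± 0.151 Thy1 UMIs and the 4 glial classes together (astrocytes, oligodendrocytes, their precursors, and microglia) 0.338 ± 0.0774 (SD, n = 16 mice), at mean median depths of 2506 and 1035 UMIs. L5 ET nuclei, with 3371 UMIs, had the most Thy1 per nucleus among these, 0.882 ± 0.294. The glial level was 57.8% ± 9.58 of the glutamatergic level, between 42.4% and 81.9% over mice.

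RNA that is free in a droplet library gives UMIs in nuclei that do not express a gene. Other neuronal genes were found in glial nuclei as well, at 78.1% of the glutamatergic level per nucleus for Camk2a, 75.7% for Nrgn, 41.0% for Snap25 and 41.6% for Rbfox1, against 8.36% for Csmd1. Thy1 lay within this range. Its level in glial classes is not read as expression by glia, and the part of free RNA in it was not tested.

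**Figure D2:**
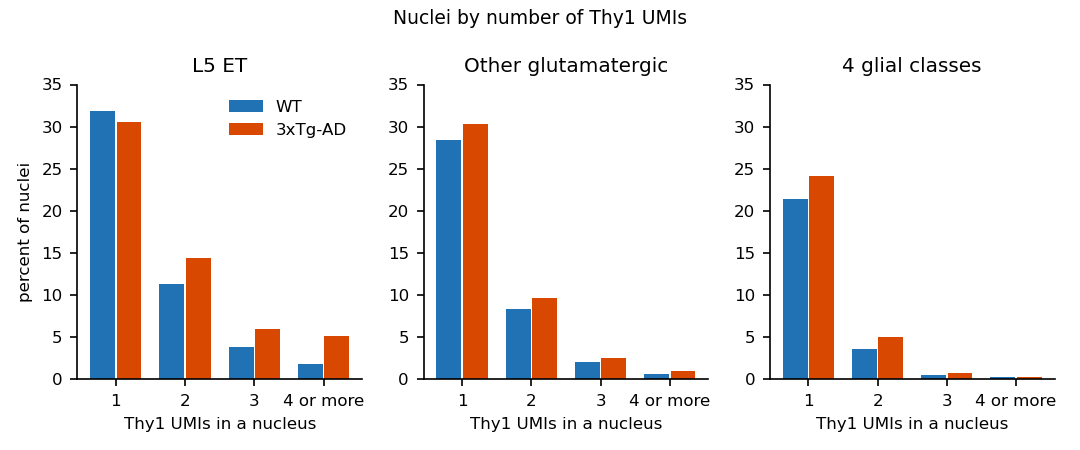
Percent of nuclei with 1, 2, 3 and 4 or more Thy1 UMIs in L5 ET nuclei, other glutamatergic nuclei and the 4 glial classes, before any correction for depth. The nuclei of all 8 WT mice and of all 8 3xTg-AD mice were pooled, so the percents are not means over mice. L5 ET nuclei with 4 or more Thy1 UMIs made up 1.85% in WT and 5.09% in 3xTg-AD mice, against 0.640% and 0.911% of the other glutamatergic nuclei and 0.195% and 0.222% of the glial nuclei.

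Raw UMIs were summed per mouse and class, and the groups were compared with the quasi-likelihood test of edgeR across all genes, with p-values adjusted by Benjamini-Hochberg over the genes of a class and contrast. In the sum of all nuclei, Thy1 had 229, 162, 213 and 251 CPM in WT controls 26, 27, 28 and 36. It had 263, 238, 277 and 269 CPM in alcohol-exposed WT mice 6, 7, 17 and 18. It had 206, 303, 275 and 351 CPM in 3xTg-AD mice 12, 13, 14 and 21, and 257, 231, 333 and 301 CPM in alcohol-exposed 3xTg-AD mice 4, 31, 33 and 34. WT control 27 was the lowest of all 16 mice, and all groups overlapped with at least 1 other group.

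Averaged over both exposures, the log2 fold change of Thy1 between 3xTg-AD and WT mice was 0.25 in the sum of all nuclei (SE 0.112, edgeR adjusted p = 0.268), with 3.28% of the tested genes called there at an adjusted p of at most 0.05. In that sum, a shift in the share of classes and a shift in the level per nucleus cannot be told apart. In glutamatergic nuclei the level was 205 ± 34.1 CPM in WT and 245 ± 37.7 CPM in 3xTg-AD mice (SD, n = 8 mice each). The log2 fold change was 0.26 (SE 0.104, edgeR adjusted p = 0.200), with 2.91% of genes called. Neither passed the test, although both had an unadjusted p under 0.05 in the edgeR test (0.0367 and 0.0202). Without alcohol, the log2 fold change between genotypes was 0.41 in all nuclei and 0.40 in glutamatergic nuclei (edgeR adjusted p = 0.449 and 0.412). With alcohol in both genotypes it was 0.10 and 0.13 (edgeR adjusted p = 0.814 and 0.738).

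L5 ET neurons were the only class in which Thy1 passed the edgeR test for the mean genotype effect. In WT controls 26, 27, 28 and 36 their Thy1 level was 189, 143, 177 and 209 CPM, and in alcohol-exposed WT mice 6, 7, 17 and 18 it was 241, 205, 236 and 209 CPM. In 3xTg-AD mice 12, 13, 14 and 21 it was 211, 284, 302 and 343 CPM, and in alcohol-exposed 3xTg-AD mice 4, 31, 33 and 34 it was 269, 224, 434 and 340 CPM. Of the 8 3xTg-AD mice, 6 lay above all WT mice, and the remaining 2, mice 12 and 31, lay within the WT range.

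The L5 ET level was 201 ± 31.9 CPM in WT and 301 ± 72.1 CPM in 3xTg-AD mice (SD, n = 8 mice each). The mean log2 fold change was 0.57 (SE 0.125, 95% interval 0.32 to 0.82), and Thy1 passed the test in edgeR (adjusted p = 0.0115). Thy1 was 1 of 67 genes called among 9742 tested in this class and contrast (0.688%), and 1 of the 41 called higher in 3xTg-AD mice (0.421%). An exact permutation test over mice of this single level gave a log2 difference of 0.56 and p = 0.00202 (two-sided). Without alcohol-exposed 3xTg-AD mouse 33, the highest of all, the fold change was 0.47 on the log2 scale and missed the threshold (edgeR adjusted p = 0.0511), whereas it passed when any 1 of the other 15 mice was left out.

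**Figure D3:**
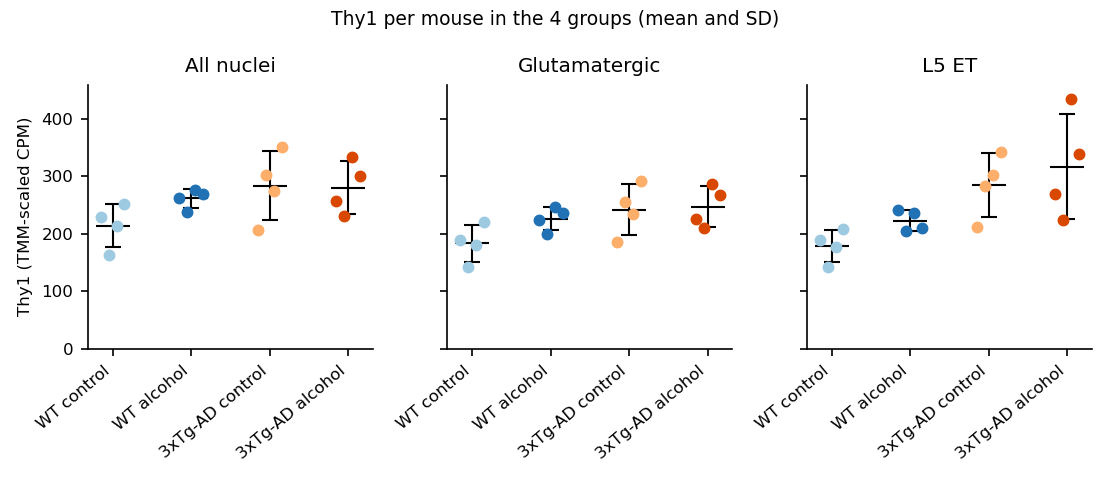
Thy1 level in CPM (TMM-scaled) in the sum of all nuclei, in glutamatergic nuclei and in L5 ET nuclei, with a point per mouse and the mean ± SD of the 4 mice in each group. In L5 ET nuclei the groups without alcohol do not overlap, with WT controls at 143 to 209 CPM and 3xTg-AD mice at 211 to 343 CPM.

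Split by exposure, the L5 ET difference had the same sign in both arms. Without alcohol, the 4 3xTg-AD mice all lay above the 4 WT controls, with a log2 difference of 0.66 (exact permutation, two-sided, p = 0.0286, the smallest p that 4 against 4 mice can give). In the fit across all genes the log2 fold change was 0.65 (edgeR adjusted p = 0.238, 0.103% of genes called). With alcohol in both genotypes the log2 fold change was 0.49 (edgeR adjusted p = 0.327, 0.287% of genes called), and the groups overlapped. The exact permutation test with alcohol in both genotypes gave a log2 difference of 0.47 and p = 0.0857 (two-sided). Neither arm alone passed the test across genes.

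Alcohol-exposed 3xTg-AD mice were compared with WT controls as well, the contrast in which both factors differ. In L5 ET neurons Thy1 had 317 ± 91.7 CPM against 179 ± 27.9 CPM (SD, n = 4 mice each), and the groups did not overlap. The log2 fold change was 0.79 (SE 0.177, edgeR adjusted p = 0.0184), with 71 of 9742 genes called (0.729%). This call was lost in the same test without WT control 27 (0.70, adjusted p 0.0622), WT control 28 (0.79, adjusted p 0.0512), alcohol-exposed 3xTg-AD mouse 33 (0.60, adjusted p 0.149) or mouse 34 (0.76, adjusted p 0.0624). It was also lost with Gm42418, a transcript that resembles ribosomal RNA, as a covariate (0.62, edgeR adjusted p = 0.165) and without the 3 mice with most Gm42418, 2 of them WT controls (0.69, edgeR adjusted p = 0.0521), and it held under 20 of 26 alternatives. These 3 genotype contrasts share control or alcohol-exposed mice with the mean contrast and are not independent of it.

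In the other 14 classes that were tested, and in the unassigned nuclei, the mean genotype effect on Thy1 did not pass the test (edgeR adjusted p between 0.325 and 0.996), with between 0.254% of genes called in Pvalb and 1.28% in L2/3 IT neurons. Lamp5 neurons had a log2 fold change of 0.62, but with an SE of 0.284 and an adjusted p of 0.616 in edgeR. Microglia had 0.42 (edgeR adjusted p = 0.325). The exact permutation test over mice of their level gave a log2 difference of 0.53 and an unadjusted p of 0.0266. In the same exact test astrocytes had an unadjusted p of 0.0446, and the sum of all glutamatergic nuclei had 0.0486. The unadjusted p of edgeR was under 0.05 in microglia (0.0138), astrocytes (0.0287) and Lamp5 neurons (0.0309). Vip neurons had 0.38, oligodendrocyte precursors 0.30, astrocytes 0.26 and oligodendrocytes 0.24. Among the glutamatergic subclasses, L6 CT neurons had 0.19, L2/3 IT and L5 IT neurons 0.17 each, and L5/6 NP neurons -0.05. Pvalb neurons had 0.13, Sncg neurons 0.01 and Sst neurons -0.02. The fold change was above 0 in 16 of the 18 sums, which overlap in their nuclei and come from the same mice, and the intervals of the small classes were wide.

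**Figure D4:**
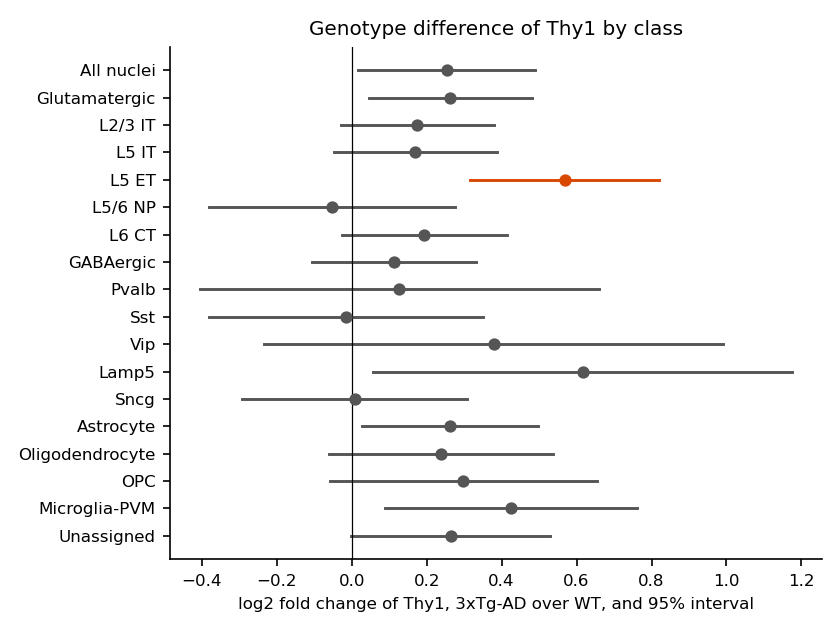
Log2 fold change of Thy1 between 3xTg-AD and WT mice, averaged over both exposures, in each class, with its 95% interval from edgeR. L5 ET neurons (orange, log2 0.57) are the class whose adjusted p passed 0.05, and the intervals of Vip and Lamp5 neurons are the widest.

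A call in L5 ET neurons and none elsewhere does not show that the classes differ, so the difference between classes was tested within mice. The log2 ratio of the Thy1 level in L5 ET nuclei to that in all other glutamatergic nuclei was -0.01, 0.01, -0.03 and -0.09 in WT controls 26, 27, 28 and 36. It was 0.12, 0.05, -0.07 and -0.19 in alcohol-exposed WT mice 6, 7, 17 and 18. In 3xTg-AD mice 12, 13, 14 and 21 the ratio was 0.21, 0.17, 0.40 and 0.25, and in alcohol-exposed 3xTg-AD mice 4, 31, 33 and 34 it was 0.29, 0.11, 0.67 and 0.38. In all 8 3xTg-AD mice the L5 ET level was thus above that of the other glutamatergic nuclei, while in WT mice the ratio lay on both sides of 0.

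The mean ratio was 0.31 ± 0.18 in 3xTg-AD and -0.03 ± 0.09 in WT mice (SD, n = 8 each), a difference of 0.34 on the log2 scale (exact permutation, two-sided, p = 0.000311, adjusted p = 0.0028 over 9 pairs of classes). It passed without each mouse in turn, with differences between 0.29 and 0.37. No other pair passed with all mice. The difference was 0.15 for glutamatergic over GABAergic nuclei (exact permutation p = 0.0437, adjusted p = 0.197), -0.29 for L5/6 NP over other glutamatergic nuclei (exact permutation p = 0.104, adjusted p = 0.235) and 0.19 for L6 IT over other glutamatergic nuclei in 13 mice. Without alcohol-exposed WT mouse 7 the L5/6 NP pair passed as well, at -0.41 (exact permutation, adjusted p = 0.0210). For L5 IT it was -0.10, for L2/3 IT -0.08 and for L6 CT -0.03. Glutamatergic nuclei over astrocytes gave -0.03 and over oligodendrocytes 0.05. L6 IT nuclei were too few for a fit, so their CPM was not TMM-scaled, while that of the other glutamatergic nuclei was.

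The comparison of L5 ET nuclei with the 4 glial classes was added after seeing the data, because the glial level was also higher by value in 3xTg-AD mice. Per nucleus, glia had 0.302 Thy1 UMIs in WT and 0.374 in 3xTg-AD mice, L5 ET nuclei 0.706 ± 0.205 and 1.06 ± 0.269, and the other glutamatergic nuclei 0.528 ± 0.162 and 0.618 ± 0.113. The log2 ratio of CPM in L5 ET nuclei over glia was -0.08 ± 0.27 in 3xTg-AD and -0.32 ± 0.24 in WT mice, a difference of 0.24 that missed the threshold (exact permutation, two-sided, p = 0.0747). It passed that threshold without WT control 27 (0.28), alcohol-exposed WT mouse 6 (0.29) or 3xTg-AD mouse 13 (0.28). The glial CPM in this ratio was scaled with the TMM factors of astrocytes. Free RNA can enter both sides of the ratio in unknown shares, so the ratio cannot separate it from expression. The part of free RNA in the L5 ET difference was not tested.

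**Figure D5:**
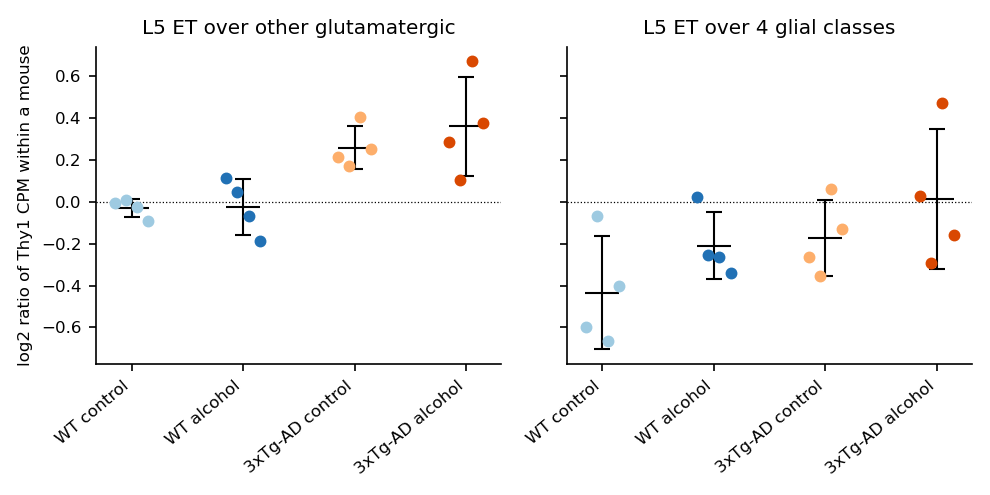
Log2 ratio of the Thy1 level in L5 ET nuclei over that in other glutamatergic nuclei (left) and over that in the 4 glial classes (right), with a point per mouse and the mean ± SD of the 4 mice in each group. On the left the 3xTg-AD mice lie between 0.11 and 0.67 and the WT mice between -0.19 and 0.12, and on the right the genotypes overlap.

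The L5 ET class itself was compared between genotypes in size, depth and marker levels. It made up 7.08% ± 1.41 of the glutamatergic nuclei in 3xTg-AD and 6.44% ± 1.5 in WT mice (exact permutation, two-sided, p = 0.393), and the mean of the median depths was 3403 and 3338 UMIs. The summed level of its 7 detected markers was 938 ± 63.5 CPM in 3xTg-AD (845 to 1031) and 963 ± 104 CPM in WT mice (824 to 1138; exact permutation p = 0.610). These markers sorted nuclei into the class, so the sum is partly set by the sorting. It is no independent check that the class was alike in both genotypes. Of the single markers, 5 of 7 were lower by value in 3xTg-AD mice. Slco2a1 was at 18.3 against 28.1 CPM, Parm1 at 67.0 against 86.4 CPM and Npr3 at 66.4 against 78.4 CPM (exact permutation, unadjusted p = 0.0674, 0.0454 and 0.125). Pou3f1 was at 126 against 135 CPM and Bcl11b at 394 against 407 CPM (exact permutation, unadjusted p = 0.368 and 0.637). Fezf2 was higher by value, at 233 against 195 CPM, and Lratd2 was at 34.6 against 33.5 CPM (exact permutation, unadjusted p = 0.0545 and 0.915). Among markers of other types inside L5 ET nuclei, those of Pvalb and Lamp5 neurons had lower sums in 3xTg-AD mice, 29.7 against 39.0 CPM and 161 against 185 CPM (exact permutation, unadjusted p = 0.0343 and 0.0370), and their part in the result was not tested.

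Whether more L5 ET nuclei carry Thy1 was asked next, with each nucleus thinned to 1000 UMIs. The share with a Thy1 UMI was 23.3% ± 5.92 in 3xTg-AD and 20.2% ± 3.67 in WT mice in 3349 nuclei (exact permutation, two-sided, adjusted p = 0.596), with 68 and 73 shallower nuclei left out. For all glutamatergic nuclei it was 21.1% ± 2.93 and 19.4% ± 3.25. For the 4 glial classes, in 7903 nuclei with 3705 and 3175 shallower ones left out, it was 24.4% ± 4.24 and 22.1% ± 4.88. The mean share in neurons lay below that in glia at this depth, where many glial nuclei were left out, and no order between classes and no difference between genotypes is read from these shares.

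Before thinning, the share in L5 ET nuclei was 56.7% ± 4.68 in 3xTg-AD and 46.7% ± 9.19 in WT mice, and in glia, at a lower depth, 30.1% and 25.1%. The share expected at 1000 UMIs without a random draw, added after seeing the data, was 24.9% ± 4.02 and 19.2% ± 3.91 in L5 ET nuclei, a difference of 5.70 percentage points (exact permutation, unadjusted p = 0.0132, adjusted p = 0.225).

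The L5 ET nuclei with several Thy1 UMIs were described separately from those with 1. At an expected depth of 2000 UMIs, a description added after seeing the data and given without a test, 4.13% ± 2.17 of L5 ET nuclei had 3 or more Thy1 UMIs in 3xTg-AD mice (1.64% to 8.98%) against 1.2% ± 0.737 in WT mice (0.237% to 1.98%). Among other glutamatergic nuclei the values were 1.53% ± 0.572 and 1.03% ± 0.412. At full depth, with the nuclei of all mice of a genotype pooled, 44.0% of L5 ET nuclei in 3xTg-AD and 51.2% in WT mice had 0 Thy1 UMIs. The shares with exactly 1 Thy1 UMI were 30.6% and 31.8%, and those with 2 were 14.3% and 11.3%. These pooled shares are not on the same scale as the means over mice at 2000 UMIs. The highest count in a nucleus was in alcohol-exposed 3xTg-AD mouse 33.

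Alcohol alone moved Thy1 past the threshold in none of the 18 sums. In WT mice edgeR called 0 and DESeq2 called 0, with an unadjusted p under 0.05 in 3 sums for each tool, and 0.0179% of all genes were called in the sum of all nuclei. Those were L2/3 IT neurons with a log2 fold change of 0.42, L6 CT neurons with 0.32 and Lamp5 neurons with 1.26 (edgeR unadjusted p = 0.00542, 0.0492 and 0.00328). The Lamp5 sums of WT controls held only 8, 3 and 3 Thy1 UMIs. In L5 ET neurons the log2 fold change with alcohol was 0.30 in WT mice (edgeR adjusted p = 0.567, 0.0103% of genes called), from 179 ± 27.9 to 223 ± 18.1 CPM. WT mice also had 0.29 in all nuclei and 0.30 in glutamatergic nuclei (edgeR adjusted p = 0.407 and 0.371, unadjusted p = 0.0841 and 0.0526). Over all alternatives the values ran from 0.13 to 0.38 in all nuclei and from 0.15 to 0.41 in glutamatergic nuclei. In L5 ET neurons they ran from 0.17 to 0.56, and none of these was called. WT controls 26 and 27 were among the mice with most Gm42418, and no exposed mouse was. For L2/3 IT neurons the exposed WT mice all lay above the WT controls (exact permutation, two-sided, p = 0.0286).

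In 3xTg-AD mice the log2 fold change with alcohol was 0.15 in L5 ET neurons (edgeR adjusted p = 0.906, 0.0924% of genes called), from 285 ± 55.2 to 317 ± 91.7 CPM. In the sum of all nuclei it was -0.02 and in glutamatergic nuclei 0.03, and the sign of all 3 values turned when single mice were left out. Both edgeR and DESeq2 called 0 of 18 sums, 0 had an unadjusted p under 0.05, and 0.483% of all genes were called in the sum of all nuclei. The interaction of genotype and alcohol was called in 0 sums by edgeR and by DESeq2 (0.0% of genes in the sum of all nuclei), with an unadjusted p under 0.05 in 2, L2/3 IT neurons (log2 -0.45) and Lamp5 neurons (log2 -1.73).

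Genes that work with Thy-1 were taken as lists. Of the 10 binding partners, which include integrin subunits and syndecan-4, 9 were in the table, and the edgeR test called 0 of the 9 tested in all nuclei, 0 of 7 in glutamatergic nuclei and 0 of 2 in L5 ET neurons for the mean genotype effect. With 3.28%, 2.91% and 0.688% of all genes called there, these counts are no result about the partners. Their median log2 fold change was 0.20 in all nuclei, with 6 of 9 above 0, and -0.02 in glutamatergic nuclei, with 3 of 7 above 0, beside -0.01 over all genes in both. Itgav, the alpha chain of the integrin that binds Thy-1, had 35.5 CPM in WT and 31.5 CPM in 3xTg-AD mice in glutamatergic nuclei, its partner chain Itgb3 had 2.42 and 2.27 CPM, and the proteoglycan Sdc4 had 4.78 and 4.99 CPM.

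Among 13 genes of membrane signaling, 1 was called in all nuclei and in glutamatergic nuclei, and 0 of 11 in L5 ET neurons, where 3.28%, 2.91% and 0.688% of all genes were called. That gene was Lyn, a Src family kinase. Its level in glutamatergic nuclei was 24 ± 2.41 CPM in WT mice (20.9 to 27.5) and 35 ± 5.32 CPM in 3xTg-AD mice (26 to 42.2), with a log2 fold change of 0.55 (SE 0.094, edgeR adjusted p = 0.0025). Lyn was called in that contrast under all 23 alternatives, with values between 0.50 and 0.60. Fyn, the kinase most often linked to Thy-1 in neurons, had 55.8 and 56.9 CPM, the adaptor Pag1 25 and 23.8 CPM, and Csk, which inhibits Src kinases, 9.79 and 9.92 CPM. None of these 3 passed the test.

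Of the 14 genes for synthesis and attachment of the GPI anchor, 0 were called for the mean genotype effect in all nuclei and in glutamatergic nuclei, and 0 of 13 tested in L5 ET neurons, beside 3.28%, 2.91% and 0.688% of all genes, shares at which few or no calls among so few genes are no result about them. Their median log2 fold change was 0.03 in glutamatergic nuclei. Of 27 other GPI-anchored neuronal surface proteins, 0 were called for the mean genotype effect there (2.91% of all genes). The prion protein gene Prnp, which also encodes a GPI-anchored protein, had 255 CPM in WT and 239 CPM in 3xTg-AD mice in glutamatergic nuclei. In astrocytes 1 of 23 was called, the contactin gene Cntn1, named after its value was seen, with a log2 fold change of -0.43 (edgeR adjusted p = 0.0289, 1.03% of genes called).

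In alcohol-exposed 3xTg-AD mice compared with WT controls, 2 of the 27 passed in glutamatergic nuclei, where 3.03% of genes were called. Cntn3, a cell adhesion molecule of the contactin family, had 91.3 ± 12.6 CPM in WT controls, 58.9 ± 7.70 CPM in alcohol-exposed WT mice, 85.1 ± 8.37 CPM in 3xTg-AD mice and 58.3 ± 1.71 CPM in alcohol-exposed 3xTg-AD mice. It fell by 0.64 on the log2 scale (SE 0.112, edgeR adjusted p = 0.0042) and was called under all 24 alternatives. The low Cntn3 levels went with alcohol in both genotypes. Within 3xTg-AD mice Cntn3 fell with alcohol by 0.55 (edgeR adjusted p = 0.0491, 0.22% of genes called), and within WT mice the log2 fold change was -0.63 (edgeR adjusted p = 0.080). The call within 3xTg-AD mice held under 12 of 24 alternatives, at values between -0.60 and -0.45 over all of them. It was lost without WT control 28, without 3xTg-AD mouse 13, 14 or 21, without any 1 of the 4 alcohol-exposed 3xTg-AD mice, with RLE factors, with no filter on low counts, under the stricter marker rule and under the stricter filter on nuclei.

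Opcml, an adhesion molecule of the IgLON family, was at 808 ± 146 CPM in glutamatergic nuclei of WT controls and at 1168 ± 107 CPM in those of alcohol-exposed 3xTg-AD mice, and rose by 0.53 (edgeR adjusted p = 0.0486). When 1 mouse was left out, that call held only without WT control 27, alcohol-exposed WT mouse 6 or 3xTg-AD mouse 12, with values between 0.44 and 0.84 over all alternatives. In L5 ET neurons, where 0.729% of genes were called, Opcml was the 1 member of 23 called in that contrast, with 0.62 (edgeR adjusted p = 0.0228), a call that was lost without WT control 26 or 28 or alcohol-exposed 3xTg-AD mouse 4, 33 or 34, within a range of 0.55 to 0.85 over all alternatives.

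The mouse counterparts of both transgenes were read as well. In glutamatergic nuclei App, which encodes the amyloid precursor protein, had 481 ± 64.0 CPM in WT and 423 ± 47.4 CPM in 3xTg-AD mice. Mapt, which encodes tau, had 268 ± 11.4 and 278 ± 17.6 CPM. Whether reads of the human transgenes were counted for App and Mapt was not tested. Neither App nor Mapt passed the test (edgeR adjusted p = 0.316 and 0.737).

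Of 25 genes in the table that start within 500 kb of Thy1 on chromosome 9, 15 were tested in L5 ET neurons. For the mean genotype effect edgeR called 0 of these 15 neighbors there, beside 0.688% of all genes, and their median log2 fold change was 0.07.

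The transcript Gm42418 stood out in 3 mice, with 29047 CPM in WT control 26, 19430 CPM in WT control 27 and 17914 CPM in 3xTg-AD mouse 12, against 2059 to 4249 CPM in the other 13. Total UMIs per mouse ran from 9622031 to 17544364 and nuclei from 4955 to 9096. Without these 3 mice, the mean L5 ET effect on Thy1 was 0.57 (edgeR adjusted p = 0.0067) and the difference of the ratio to other glutamatergic nuclei 0.36 (exact permutation adjusted p = 0.021).

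The genes most like Thy1 were sought by Pearson correlation of log2(CPM + 1), as a description without a p. Over the 15 classes and 10783 genes, these were Gnai1, an inhibitory G protein subunit (r = 0.90), Syngr1, a synaptic vesicle protein (0.90), Mgst3, a microsomal glutathione transferase (0.87), Hnrnph2, an RNA-binding protein (0.87), and Znhit1 (0.87). Over the 16 mice in glutamatergic nuclei and 10129 genes, they were Ufsp2, a protease of the UFM1 pathway (0.88), Rnaseh1 (0.86), Fkbp8 (0.86), Lin37 (0.85) and Glrx (0.85). The classes share mice and free RNA, and the mice share libraries and depth. By Spearman correlation, 1 of the first 5 over classes and 0 over mice stayed among the first 5.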

How the data were processed

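Nuclei of the medial PFC from 16 mice were counted singly. The authors aligned the 10x Genomics 3′ reads to mm10 with Cell Ranger 6.1.1, which uses STAR, and deposited raw UMI counts per gene and nucleus, without normalization, in 1 table of 19999 genes and 114512 nuclei. That is more nuclei than the study states, and the limits of its filter are not given in the sources used here. A nucleus had at least 491 genes and a median of 1543 UMIs. No doublet caller was run, and a nucleus with markers of 2 classes stayed unassigned only where neither had a clear lead, so doublets may remain in the classes. Of the barcodes, 1694 occurred in 2 or more libraries. The human transgenes, the behavioral tests and the 5xFAD mice were not analysed here.

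The gene, the lists and the markers were chosen with earlier results of these data known. A nucleus joined a main class with at least 3 UMIs from at least 2 of its markers (2 UMIs for a subclass) and a lead of at least 2 times over the next class, and 141 of 145 markers were in the table. UMIs were summed per mouse and class, with at least 10 nuclei per mouse and 3 mice per group, and entered the robust quasi-likelihood fit of edgeR 4.0.16 (R 4.3.3, statmod 1.5.0; filterByExpr, TMM, a mean per group), after the fit was tested on simulated counts. Endothelial cells were fitted, but Thy1 did not pass the filter there. The Benjamini-Hochberg adjustment ran over the genes of 1 class and contrast, with 0.05 as the limit for a call. Exact permutation tests over mice were two-sided (Python 3.11.15, numpy 2.4.6, scipy 1.17.1, pandas 2.3.3), and with 8 against 8 mice cannot go below 0.000155. They measure the spread between mice, in which counting error is included.

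Shares were compared after thinning to 1000 UMIs. Genes named beside Thy1 were list members called in all nuclei or glutamatergic nuclei in any genotype contrast, 10 members fixed by name, called neighbors within 500 kb, and the 5 genes most like Thy1 by each correlation, among genes with a mean of at least 10 CPM. Some of these genes are not reported here. Coordinates are from GENCODE M21 (Thy1) and RefSeq GRCm38.p6 (neighbors).

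Alternatives were DESeq2 1.42.0, the median-ratio size factors of edgeR (RLE), no filter on low counts, at least 500 genes and at most 5% mitochondrial UMIs per nucleus, a stricter marker rule (5 and 4 UMIs, a lead of 3 times), the groups compared alone, Gm42418 as a covariate, the mice with most Gm42418 left out, each mouse left out, 500 UMIs or no thinning, CPM without TMM, and Spearman correlation. UMIs per nucleus, the ratio to glia, L5 ET classes without Fezf2 or Bcl11b, shares without single mice, shares without a random draw and shares with 3 or more UMIs were added after seeing the data.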

Additional observations from a re-analysis of the deposited data

Results flagged for a closer look

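In 2 of the 70 groups of 4 mice that were checked over all classes, 1 mouse lay far from the other 3 in its Thy1 level, where chance gives about 1 in 20 groups. In L6 CT neurons, alcohol-exposed WT mouse 7 had 168 CPM, and the other 3 mice of its group had 253, 257 and 258 CPM. In astrocytes, WT control 27 had 123 CPM, and the other WT controls had 265, 267 and 281 CPM. WT control 27 was also the lowest WT control in the sum of all nuclei, in glutamatergic nuclei and in L5 ET neurons.

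The genotype effect on Thy1 differed between L5 ET neurons and the other glutamatergic nuclei, by 0.34 on the log2 scale (exact permutation over 16 mice, adjusted p = 0.0028).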

How the results depend on the processing

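Thy1 was refitted under 847 alternatives of its fold changes, and 808 kept direction and side of the threshold. The mean genotype effect in L5 ET neurons was 0.57 with RLE factors (edgeR adjusted p = 0.0111), 0.57 in DESeq2 (0.0056), 0.51 with Gm42418 as a covariate (0.0207), 0.77 under the stricter marker rule (0.0229), 0.55 without Fezf2 as a marker (0.0295) and 0.67 without Bcl11b (0.0155). With each mouse left out it was 0.47 to 0.64, and only without alcohol-exposed 3xTg-AD mouse 33 was the call lost (adjusted p 0.0511). Alcohol-exposed 3xTg-AD mice versus WT controls in L5 ET neurons gave 0.62 with the Gm42418 covariate (edgeR adjusted p = 0.165), 0.69 without the 3 mice with most Gm42418 (0.0521) and 0.60 to 0.94 with each mouse left out. Without alcohol, the genotype effect there passed with no filter on low counts (0.65, edgeR adjusted p = 0.0342) and without 3xTg-AD mouse 12 (0.77, adjusted p 0.0488), in a range of 0.54 to 0.77 with each mouse left out and up to 0.93 over all alternatives (stricter marker rule, not called). Alcohol in 3xTg-AD mice changed sign, from -0.14 to 0.10 in all nuclei, -0.075 to 0.13 in glutamatergic nuclei and -0.043 to 0.29 in L5 ET neurons with each mouse left out, and in glutamatergic nuclei with the Gm42418 covariate (-0.073) and without the 3 mice (-0.063). The mean genotype effect changed sign with each mouse left out in L5/6 NP (-0.15 to 0.020), Pvalb (-0.14 to 0.29), Sst (-0.20 to 0.14) and Sncg neurons (-0.049 to 0.091), in Sst neurons in DESeq2 (0.0071) and in Sncg neurons with the covariate (-0.10). Genotype differences of the ratio changed sign for glutamatergic nuclei over astrocytes (-0.093 to 0.028, and 0.0079 without the 3 mice and 0.0015 per nucleus) and over oligodendrocytes (-0.044 to 0.10), and for L6 CT neurons (-0.072 to 0.0024). L5 ET over glia ran from 0.16 to 0.29. The cause of these shifts was not tested. Of the genes most like Thy1, 1 and 0 of 5 stayed under Spearman correlation. No paired analysis was possible because the mouse numbers of the labels are not shared between groups. Few nuclei limit the small classes, and Lamp5 sums of 28 and 21 nuclei held 3 Thy1 UMIs each.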
